A study of Mus musculus with 6 samples.

Results

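The Nodal, BMP and TGF-beta pathway is described here through 41 genes, named by their place in the pathway and not by any measured value. They are 17 genes for secreted or surface-bound extracellular proteins (ligands, the Nodal co-receptor Tdgf1 and antagonists), 11 for receptors, 8 for SMAD proteins, and 5 for nuclear proteins, which are the co-repressor Skil and the 4 Id genes. All 41 were found among the 22359 protein-coding genes of the annotation. Ligands of this family bring together type I and type II receptor kinases, which phosphorylate SMAD proteins that then enter the nucleus with SMAD4. Nodal, activins and TGF-beta signal mainly through SMAD2 and SMAD3, and BMPs through SMAD1, SMAD5 and SMAD9. In mouse pluripotent cells the Id genes are classical BMP targets, while Lefty1, Lefty2 and Nodal itself are targets of Nodal signalling, and the Lefty proteins feed back on it as inhibitors.

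Chromatin accessibility had been profiled by ATAC-seq, which uses a transposase to tag accessible DNA, in 3 mouse cell states with 2 technical replicates each. The reference state was the embryonic stem cell (ESC) line J1, of the 129SV strain, grown in a serum medium (15% FBS) with LIF, 3 µM CHIR99021 (a GSK3 inhibitor) and 1 µM PD0325901 (a MEK inhibitor), on feeders or gelatin. Expanded potential stem cells (EPSCs) had been derived from ESCs and kept without feeders before the assay. D-EPSCs grew in N2B27 with 5% serum replacement, LIF, 3 µM CHIR99021, 2 µM dimethindene maleate and 2 µM minocycline. L-EPSCs grew in 20% serum replacement with LIF, 3 µM CHIR99021, 1 µM PD0325901 and inhibitors of SRC-family kinases (A-419259, 0.3 µM), tankyrase (XAV939, 5 µM), JNK (JNK inhibitor VIII, 4 µM) and p38 (SB203580, 10 µM). All 3 states thus shared LIF and CHIR99021, the J1 line is a single line, and serum was in the ESC medium alone.

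Each state has a single peak list (28965 peaks in ESCs, 50225 in D-EPSCs, 46601 in L-EPSCs) of positions on mm9, with no height, score or value per replicate. No test across replicates was possible, so every difference below describes these 3 lists, and each share is set beside that of all coding genes. The depth behind a list is unknown, and a missing peak does not show that the DNA was closed. A start peak below is a peak that overlaps, by at least 1 bp, the 1 kb on either side of the start of a coding transcript. Over all coding genes, 51.5%, 63.4% and 60.8% had a start peak in the ESC, D-EPSC and L-EPSC lists, the background for the marker counts. Of 10 genes that mark pluripotent cells, 8 had a start peak in the ESC list and 10 in either EPSC list, and the 2 without one in ESCs were Nanog and Esrrb. Of 10 genes that mark embryonic fibroblasts, the feeder cell type, 2 had an ESC start peak, 5 a D-EPSC and 1 an L-EPSC one. Col3a1, Prrx1, Lum, Dcn and Postn had none in any list, and the part of feeder cells in the results below was not tested. Of 8 primitive endoderm markers, 2 had an ESC start peak, 7 a D-EPSC and 6 an L-EPSC one, with Sox17 in no list, and of 8 trophoblast markers 4, 7 and 7, with Hand1 in no list. The part of such cells was not tested either.

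To ask where the pathway lay in open chromatin, start peaks were counted in each list. ESCs had a start peak at 28 of the 41 genes (68.3%, against 51.5% of all coding genes). D-EPSCs had one at 39 (95.1%, against 63.4%) and L-EPSCs at 38 (92.7%, against 60.8%). Start peaks in all 3 lists were found at 28 genes (68.3%, against 50.4%), so no pathway gene with an ESC start peak lacked one in either EPSC list. Most coding genes were alike in this, as 11270 of the 11515 with an ESC start peak had one in all 3 lists. At 500 bp from a start, Bmpr2 and Inhbb had an ESC start peak but lacked one in at least 1 EPSC list. Another 10 genes had a start peak in both EPSC lists but not in ESCs (24.4%, against 9.16% of coding genes), namely Nodal, Tdgf1, Tgfb1, Bmp2, Bmp4, Chrd, Fst, Acvr1b, Smad9 and Id1. Lefty1 had one in D-EPSCs alone (2.44%, against 3.33%), and Bmp5 and Lefty2 had none (4.88%, against 35.1%).

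Of the 13 genes outside the shared set, 10 encode extracellular proteins. Of the 17 extracellular genes, 7 had a start peak in both EPSC lists only (41.2%, against 9.16% of coding genes), 7 in all 3 lists (41.2%, against 50.4%), 1 in D-EPSCs only (5.88%, against 3.33%) and 2 in no list (11.8%, against 35.1%). Those without an ESC start peak were thus 58.8% of the extracellular genes, against 48.5% of coding genes. Start peaks in all 3 lists, found at 50.4% of coding genes, were present at 10 of 11 receptor genes, 7 of 8 SMAD genes and 4 of 5 nuclear genes. The groups are small and no test of the difference between roles was made. The exceptions were 1 gene of each kind, Acvr1b, Smad9 and Id1.

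**Figure D1:**
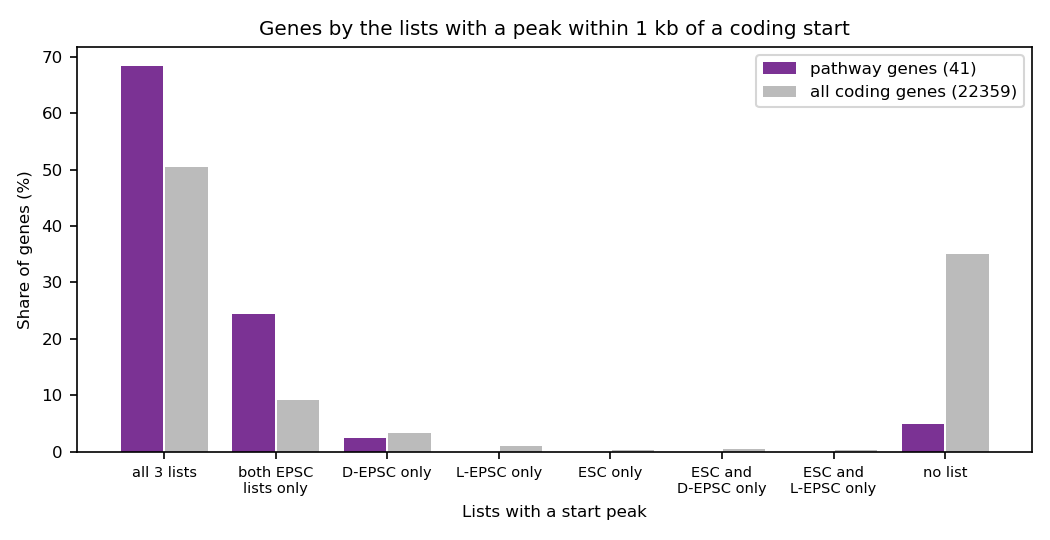
Share of genes, in percent, by the set of lists with a peak within 1 kb of a coding start, for the 41 pathway genes (purple) and all 22359 coding genes (grey). The pathway genes exceed the background in all 3 lists (68.3% against 50.4%) and in both EPSC lists only (24.4% against 9.16%), and fall below it among genes with no start peak (4.88% against 35.1%).

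The EPSC lists are longer than the ESC list, and the background shares carry this difference too. When each list was reduced to its 28965 widest peaks, 7 pathway genes stayed in the class of both EPSC lists only (17.1%, against 6.07% of coding genes). These were Nodal, Tdgf1, Bmp2, Chrd, Fst, Acvr1b and Id1, while Tgfb1 was then in D-EPSCs alone and Bmp4 and Smad9 in L-EPSCs alone.

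Nodal, the ligand that patterns the early embryo and opposes neural fate, lies at chr10:60880720-60888086 on the plus strand. Its start carried a D-EPSC peak of 449 bp and an L-EPSC peak of 308 bp over the first exon, and the nearest ESC peak lay 1605 bp away. That nearest ESC peak belonged to an upstream region centred at -1883 bp from the start and open in all 3 lists, with widths of 546, 792 and 789 bp in ESCs, D-EPSCs and L-EPSCs. Inside the gene, D-EPSCs had a further peak of 425 bp in an intron, centred at 1272 bp, and both EPSC states had a peak over a coding exon at 5513 bp (416 bp in D-EPSCs, 299 bp in L-EPSCs). The ESC list had no peak in the body of Nodal, against 3 in D-EPSCs and 2 in L-EPSCs.

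Tdgf1 (Cripto), the co-receptor that lets Nodal engage its receptors (chr9:110842114-110848662, minus strand), showed a small peak over its start in both EPSC lists, of 117 bp (D-EPSCs) and 153 bp (L-EPSCs). A larger upstream region centred at -1286 bp was open in all 3 lists. It was 999 bp wide in ESCs and stopped 1075 bp short of the start, whereas it ran to 1705 bp (D-EPSCs) and 1355 bp (L-EPSCs) and reached into the 1 kb window. Tdgf1 was therefore a gene just outside the window in ESCs, like Bmp4 (nearest ESC peak 1170 bp away), Nodal (1605 bp) and Fst (1668 bp). All 4 had a start peak in every list once the window was widened to 2.5 kb. The farthest ESC start peak still inside 1 kb was that of Nog, at 831 bp.

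The Lefty genes, which encode secreted inhibitors of Nodal, lie near each other on the plus strand of chromosome 1 (Lefty1 at chr1:182865153-182868531, Lefty2 at chr1:182823239-182829234). At Lefty1 the D-EPSC list had a 347 bp peak ending 104 bp before the start. Both EPSC lists also had a peak centred at -1169 bp, just outside the window (263 bp in D-EPSCs, 175 bp in L-EPSCs), and one over an exon at 1895 bp (215 bp and 175 bp). A region at -9969 bp was open in every list (634 bp in ESCs, 771 bp in D-EPSCs, 800 bp in L-EPSCs). At Lefty2 no list had a start peak, but all 3 had a broad peak centred at -3926 bp, of 1123, 1569 and 1080 bp in ESCs, D-EPSCs and L-EPSCs. Within the gene only the EPSC lists had a peak (276 bp and 129 bp, at 1372 bp). The class of these 2 genes depended on which starts were counted: with starts of non-coding transcripts added, both were in the class of both EPSC lists only, as they were with a 2.5 kb window.

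**Figure D2:**
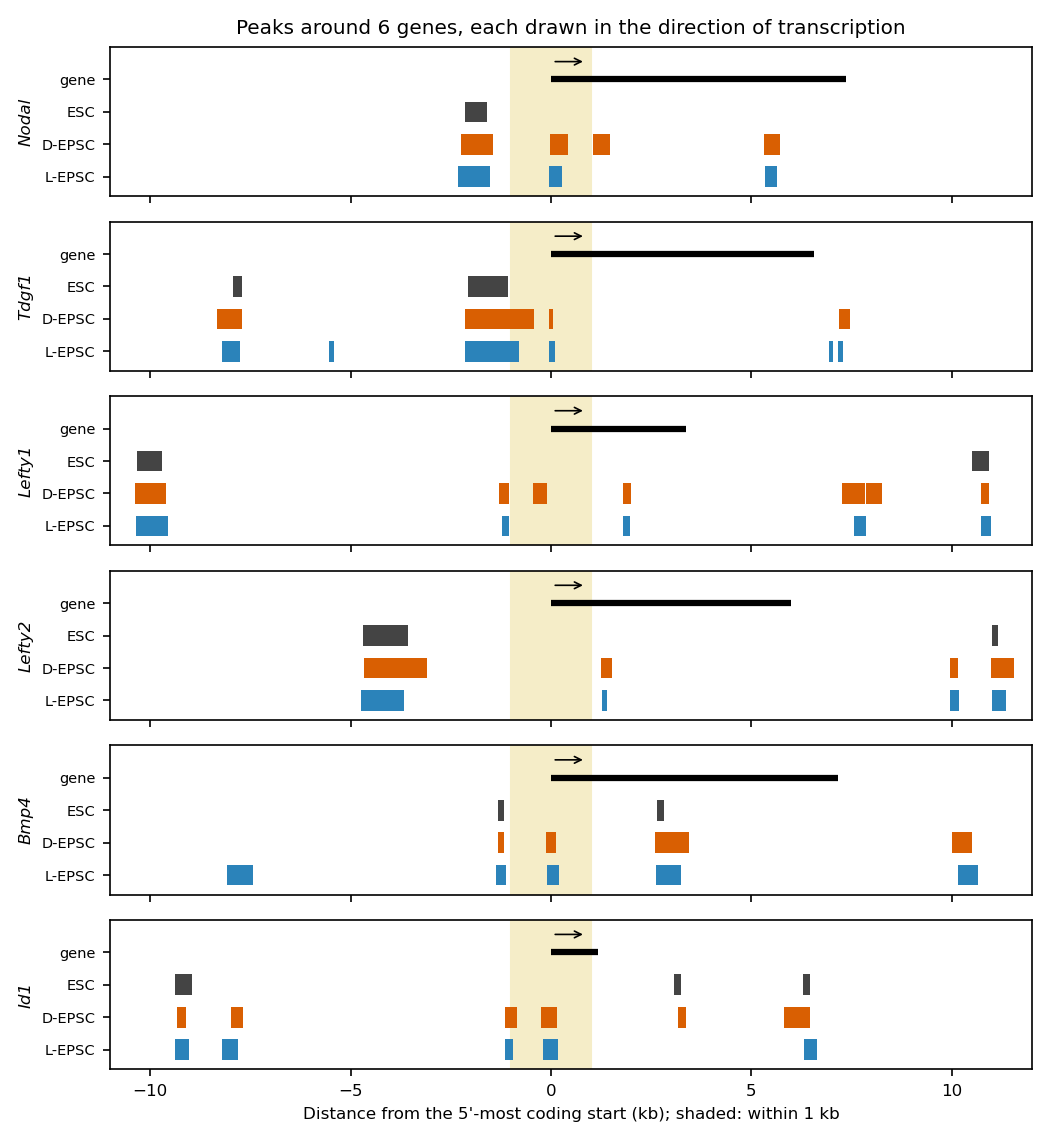
Peaks of the 3 lists (bars, drawn to scale) around Nodal, Tdgf1, Lefty1, Lefty2, Bmp4 and Id1, against the distance in kb from the 5'-most coding start, with the gene as a black line and the 1 kb window shaded. In all 6 genes the ESC row is empty inside the shaded window, while an upstream, intronic or downstream peak is shared by the 3 lists.

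Since SMAD proteins bind short DNA elements, the regions of the 3 lists, those of the pathway genes among them, were searched for consensus motifs. The search allowed no mismatch and covered both strands. The motifs were the short SMAD element CAGAC, the GC-rich SMAD site GGCGCC, the palindromic SMAD site GTCTAGAC, the FOXH1 site AATCCACA (FOXH1 brings SMAD2 and SMAD3 to Nodal targets), the octamer ATGCAAAT, the SOX site ACAATGG, the TCF/LEF site ATCAAAG and the ESRRB site AAGGTCA. On the other strand, CAGAC and AAGGTCA read GTCTG and TGACCTT. The central 300 bp of 5 regions, picked after the search, are given below on mm9, plus strand, with motif letters in capitals. They set an ESC-shared region (Lefty2) beside EPSC regions, and they are the 5 richest in CAGAC of the 21 regions in or near Nodal, Lefty1, Lefty2 and Id1, each with at least 3 such elements, while the other 16 held 0 to 2. The reference is not the 129 strain, so bases in J1 may differ. The windows are the Nodal intron at chr10:60881842-60882141, the Lefty1 upstream regions at chr1:182863834-182864133 and chr1:182864726-182865025, the Lefty2 upstream region at chr1:182819163-182819462, and the Id1 upstream region at chr2:152560840-152561139.
Nodal intron, D-EPSC only: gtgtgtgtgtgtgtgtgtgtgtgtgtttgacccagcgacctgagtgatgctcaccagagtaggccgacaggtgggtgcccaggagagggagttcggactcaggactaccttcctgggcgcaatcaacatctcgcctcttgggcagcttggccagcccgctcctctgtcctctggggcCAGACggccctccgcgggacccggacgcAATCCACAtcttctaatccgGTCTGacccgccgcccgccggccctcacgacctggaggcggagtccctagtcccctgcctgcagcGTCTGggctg
Lefty1 upstream, both EPSC lists: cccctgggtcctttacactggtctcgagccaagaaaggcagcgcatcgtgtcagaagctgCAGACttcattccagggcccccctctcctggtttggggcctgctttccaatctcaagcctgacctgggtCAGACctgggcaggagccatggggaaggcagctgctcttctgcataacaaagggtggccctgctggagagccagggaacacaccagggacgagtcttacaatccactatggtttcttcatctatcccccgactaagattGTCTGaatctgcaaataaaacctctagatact
Lefty1 promoter, D-EPSC only: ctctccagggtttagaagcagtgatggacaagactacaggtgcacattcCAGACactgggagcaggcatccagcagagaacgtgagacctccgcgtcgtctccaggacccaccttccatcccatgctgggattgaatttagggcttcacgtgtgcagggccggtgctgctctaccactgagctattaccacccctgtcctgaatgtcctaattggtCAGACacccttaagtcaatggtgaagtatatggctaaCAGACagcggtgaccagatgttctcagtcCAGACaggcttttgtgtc
Lefty2 upstream, all 3 lists: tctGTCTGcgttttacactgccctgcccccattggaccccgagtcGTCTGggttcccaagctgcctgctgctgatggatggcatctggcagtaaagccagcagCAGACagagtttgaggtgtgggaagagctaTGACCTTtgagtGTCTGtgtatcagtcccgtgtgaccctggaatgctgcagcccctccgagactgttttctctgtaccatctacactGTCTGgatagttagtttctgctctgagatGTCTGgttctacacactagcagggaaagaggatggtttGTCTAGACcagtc
Id1 upstream, both EPSC lists: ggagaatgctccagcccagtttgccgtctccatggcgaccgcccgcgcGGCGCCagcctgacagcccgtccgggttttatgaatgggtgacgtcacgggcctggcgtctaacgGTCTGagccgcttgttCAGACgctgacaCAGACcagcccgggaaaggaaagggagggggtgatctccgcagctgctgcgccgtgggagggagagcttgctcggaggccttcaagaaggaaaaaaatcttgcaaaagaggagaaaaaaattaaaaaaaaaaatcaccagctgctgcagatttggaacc

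The Lefty2 window held 6 CAGAC elements, and at least 6 occurred in 0.192% of the 65518 merged regions of the 3 lists. It had a palindromic SMAD site too, found in 0.333% of regions, and an ESRRB site, found in 6.95%. The Nodal intron window held 3 CAGAC elements and a FOXH1 site, which 0.978% of regions contain. The Lefty1 windows held 3 and 4 CAGAC elements, and that of Id1 held 3 CAGAC elements with a GC-rich SMAD site. At least 3 CAGAC elements occurred in 6.21% of all regions and at least 4 in 1.65%, a GC-rich site in 10.1%, and at least 1 CAGAC element in 56.0%. Since the windows were picked as the richest of their genes, these shares are given for scale alone. The ESC-shared region upstream of Nodal, for example, held no CAGAC element. Such windows were not limited to these genes. The Inhbb region at -1437 bp, in all 3 lists, held 5 CAGAC elements, and the Bmp7 region at 76797 bp, in both EPSC lists, held 3. The D-EPSC-only intronic region of Tgfb3 at 12234 bp held a FOXH1 site. The matches describe letters, and binding was not measured.

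Among the TGF-beta ligand genes, Tgfb1 (chr7:26472021-26490096, plus strand) had a D-EPSC start peak of 773 bp and an L-EPSC one of 247 bp, while the ESC list had its nearest peak 5855 bp off. Tgfb2 and Tgfb3 had start peaks in all 3 lists. At Tgfb2 the widths were 277, 559 and 1069 bp in ESCs, D-EPSCs and L-EPSCs. At Tgfb3 they were 406 bp, 636 bp and 335 bp in the same order, so the L-EPSC peak was the narrowest. Of the activin subunit genes, Inhba had widths of 586 bp, 851 bp and 692 bp. Inhbb had 474, 370 and 271 bp in ESCs, D-EPSCs and L-EPSCs, but the D-EPSC peak was centred 941 bp into the gene and the other 2 belonged to a region at 165 bp, so these are different positions.

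BMP ligand genes fell into 3 patterns. Bmp2 (chr2:133377895-133388621, plus strand), which signals through SMAD1 and SMAD5, had the largest gap of the 13 genes without an ESC start peak, with a D-EPSC start peak of 968 bp and an L-EPSC peak of 1155 bp while the nearest ESC peak was 62582 bp away. Bmp4, the BMP often added to serum-free stem cell cultures (chr14:47003195-47010344, minus strand), had start peaks of 259 bp (D-EPSCs) and 300 bp (L-EPSCs) and none in ESCs. Its intronic region at 3017 bp was shared but broader in EPSCs (200 bp in ESCs, 839 bp in D-EPSCs, 634 bp in L-EPSCs). Bmp6 (262 bp in ESCs, 737 bp in D-EPSCs, 351 bp in L-EPSCs) and Bmp7 (386 bp, 1118 bp and 681 bp) had start peaks in every list, broadest in D-EPSCs. Bmp5 (chr9:75623171-75748117, plus strand) stood apart with no start peak and 2 intronic peaks found in ESCs alone, of 265 bp and 628 bp, and 1 of 155 bp in L-EPSCs.

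Of the antagonists that bind BMPs or activins outside the cell, Chrd and Fst were in both EPSC lists only and Nog in all 3. Chrd (chordin, chr16:20733200-20742457, plus strand) had start peaks of 887 bp (D-EPSCs) and 666 bp (L-EPSCs) with the nearest ESC peak 15273 bp away, although the start of Thpo lies 1384 bp from that of Chrd and a peak between them could belong to either. Fst (follistatin, which binds activin, chr13:115242470-115249159, minus strand) had a D-EPSC peak of 976 bp, and 2 L-EPSC peaks of which the wider was 417 bp. Nog (noggin) had a start peak in all 3 lists, of 477, 1299 and 1008 bp in ESCs, D-EPSCs and L-EPSCs. The ESC peak lay 831 bp from the start, and no ESC peak was nearer.

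Receptor genes carried start peaks in ESCs with 1 exception. Acvr1b, the type I receptor for Nodal and activin (ALK4, chr15:101004556-101043032, plus strand), had start peaks of 790 bp (D-EPSCs) and 920 bp (L-EPSCs), with no ESC peak closer than 9564 bp, though 2 ESC peaks lay in its introns. The related receptor Acvr1c (ALK7) had a start peak in all lists. At its 5'-most start the peaks were 663 bp in ESCs, 958 bp in D-EPSCs, 289 bp in L-EPSCs, and the widest L-EPSC start peak (345 bp) lay at another start inside the gene. Bmpr1a, the BMP type I receptor, had 302, 1235 and 1340 bp in ESCs, D-EPSCs and L-EPSCs, centred at 686 bp from its 5'-most start, and a second start, at an intronic region at 43168 bp, had peaks in the EPSC lists only (358 bp and 238 bp). The TGF-beta type II receptor gene Tgfbr2 had 168 bp, 531 bp and 566 bp, and the activin type II receptor gene Acvr2b 410 bp, 905 bp and 1038 bp. The type III receptor gene Tgfbr3 had 359 bp, 648 bp and 742 bp. At other receptor genes the widths were closer. The BMP type II receptor gene Bmpr2 had 1450, 1445 and 1543 bp in ESCs, D-EPSCs and L-EPSCs, and Acvr2a 709 bp, 774 bp and 764 bp. The type I receptor genes Bmpr1b (647 bp, 795 bp and 771 bp) and Tgfbr1 (961 bp, 949 bp and 783 bp) likewise differed little, the latter being narrowest in L-EPSCs. Acvr1 had 503 bp, 1054 bp and 1034 bp, but its start lies 230 bp from that of Upp2, so those peaks cannot be assigned to 1 gene.

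**Figure D3:**
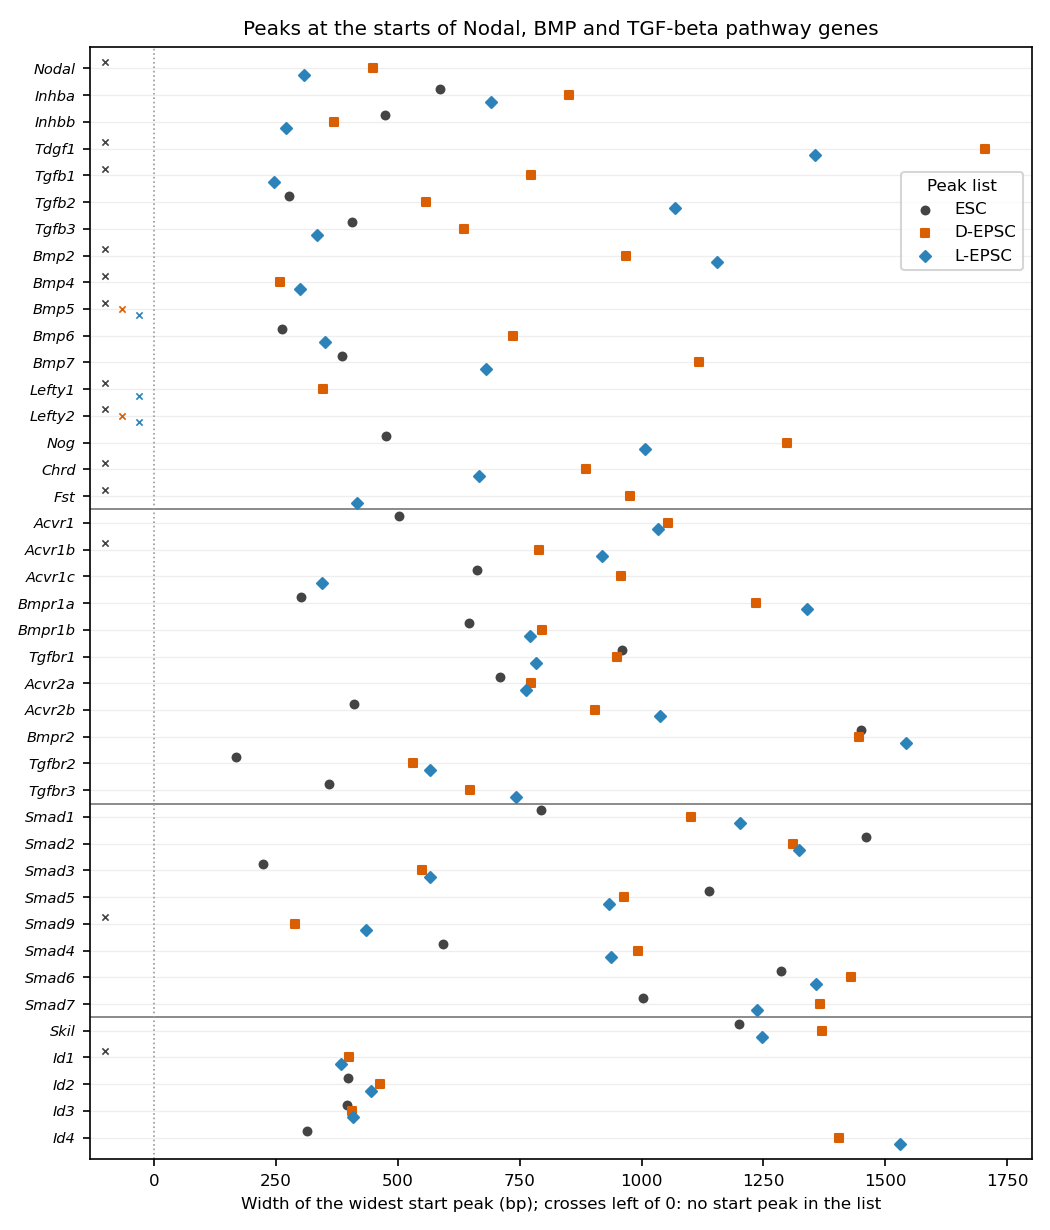
Width in bp of the widest start peak of each of the 41 genes in the ESC (grey circles), D-EPSC (orange squares) and L-EPSC (blue diamonds) lists, in order of role and divided by lines into extracellular, receptor, SMAD and nuclear genes. Crosses left of 0 mark lists with no start peak, which include the ESC list for 10 of the 17 extracellular genes (58.8%, against 48.5% of all coding genes) and for 1 gene in each other block.

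Among the SMAD genes, Smad9 (also called Smad8), a BMP-responsive SMAD (chr3:54559504-54605179, plus strand), was the only one of 8 without an ESC start peak, and the nearest was 9415 bp away. Its start peaks were 290 bp (D-EPSCs) and 436 bp (L-EPSCs). The other BMP-responsive genes were open at the start in ESCs, at 793 bp for Smad1 and 1139 bp for Smad5. Smad1 was wider in the EPSC lists (1101 bp in D-EPSCs, 1202 bp in L-EPSCs) and Smad5 narrower (965 bp and 934 bp). Of the genes for Nodal and TGF-beta signal carriers, Smad2 had broad peaks of 1461, 1310 and 1322 bp in ESCs, D-EPSCs and L-EPSCs. Smad3 had 224, 551 and 566 bp in ESCs, D-EPSCs and L-EPSCs. The inhibitory SMAD genes, which dampen signalling as feedback targets, had wide start peaks in each list, from 1285 bp (ESCs) to 1430 bp (D-EPSCs) at Smad6 and from 1004 bp (ESCs) to 1365 bp (D-EPSCs) at Smad7. The common partner Smad4 had 594, 993 and 937 bp in ESCs, D-EPSCs and L-EPSCs.

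The Id genes encode helix-loop-helix proteins that block differentiation factors. The nearest ESC peak to the start of Id1 (chr2:152561987-152563146, plus strand) lay 3072 bp away, in a region at 3223 bp found in ESCs and D-EPSCs (168 bp and 205 bp). Regions near Id1 in all 3 lists lay at -9162 bp (425 bp, 211 bp and 347 bp) and 6227 bp (193 bp, 665 bp and 330 bp). Another at -7944 bp was in the EPSC lists only (293 bp and 408 bp). Both EPSC lists had 2 start peaks, 1 over the start itself (400 bp in D-EPSCs, 384 bp in L-EPSCs) and 1 centred at -997 bp (297 bp and 192 bp), the latter being the Id1 window printed above. Id2 (398 bp in ESCs, 463 bp in D-EPSCs, 446 bp in L-EPSCs) and Id3 (397 bp, 407 bp and 409 bp) had start peaks of nearly equal width in all lists. The Id2 peaks were centred at -127 bp from the start and those of Id3 at 352 bp. Further regions shared by the 3 lists lay on either side of both genes, at -2966 bp (172 bp, 998 bp and 270 bp), 3413 bp (173 bp, 265 bp and 636 bp) and 12322 bp from the Id2 start, and at -7769 bp (316 bp, 438 bp and 560 bp) and 3464 bp (263 bp, 214 bp and 373 bp) from that of Id3. Id3 also had regions at -3020 bp and 4418 bp in the EPSC lists only. Id4 had 2 ESC start peaks, the wider of 314 bp, against single peaks of 1405 bp (D-EPSCs) and 1531 bp (L-EPSCs), all in a region centred at -34 bp. Regions near Id4 at -8881 bp (128 bp, 144 bp and 630 bp) and 12421 bp (345 bp, 364 bp and 199 bp) were also in all 3 lists. Skil (SnoN), which represses SMAD targets, had 1200, 1370 and 1247 bp in ESCs, D-EPSCs and L-EPSCs.

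Peak width was then compared over the 28 genes with a start peak in every list. The median of the widest start peak was 490 bp in ESCs (548 bp over all coding genes of this class), 954 bp in D-EPSCs (789 bp) and 858 bp in L-EPSCs (742 bp). The D-EPSC peak was wider than the ESC peak at 23 of 28 genes, which is 82.1% against 82.6% of the 11388 coding genes with a start peak in both lists. The L-EPSC peak was wider than the ESC peak at 22 of 28 (78.6%, against 77.2% of the 11331 coding genes with both). Of the 38 pathway genes with a start peak in both EPSC lists, 23 had the wider one in D-EPSCs (60.5%, against 59.7% of 13317 coding genes). The share of genes with wider peaks was thus close to the background in each comparison. The log2 ratio of the widest peaks to ESCs was largest at Id4 (2.16 in D-EPSCs, 2.29 in L-EPSCs) and Bmpr1a (2.03 and 2.15). At Id4, however, 1 EPSC peak spans what the ESC list holds as 2 peaks. With the widths of all start peaks summed (448 bp in ESCs), the Id4 ratios were 1.65 and 1.77, below those of Bmpr1a (2.40 and 2.39) and, in L-EPSCs, of Tgfb2 (1.95). In D-EPSCs the summed ratios of Bmp6 (2.22), Smad3 (1.84) and Tgfbr2 (1.66) were also above that of Id4. Of the other genes with large ratios of the widest peaks, Tgfbr2 (1.66 and 1.75) had its start region centred at 183 bp and Tgfb2, with 1.95 in L-EPSCs, at 203 bp. Those of Bmp7 (1.53 in D-EPSCs) and Bmp6 (1.49 in D-EPSCs) lay at 73 bp and 159 bp, and those of Acvr2b and Smad3 (both 1.34 in L-EPSCs) at -219 bp and -202 bp. At Bmp6, Smad3 and Acvr2b a further start region, at 1294 bp, 760 bp and 1129 bp, had no ESC peak. The peaks set side by side shared bases at 27 of 28 genes in either comparison. The exceptions were Inhbb in D-EPSCs (-0.36) and Acvr1c in L-EPSCs (-0.94), where the ratio is between peaks at different positions. At the position of the ESC peak, the ratio for Acvr1c in L-EPSCs was -1.20. Over the 10 genes in both EPSC lists only, the median was 782 bp in D-EPSCs (559 bp over coding genes of that class) and 426 bp in L-EPSCs (450 bp).

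**Figure D4:**
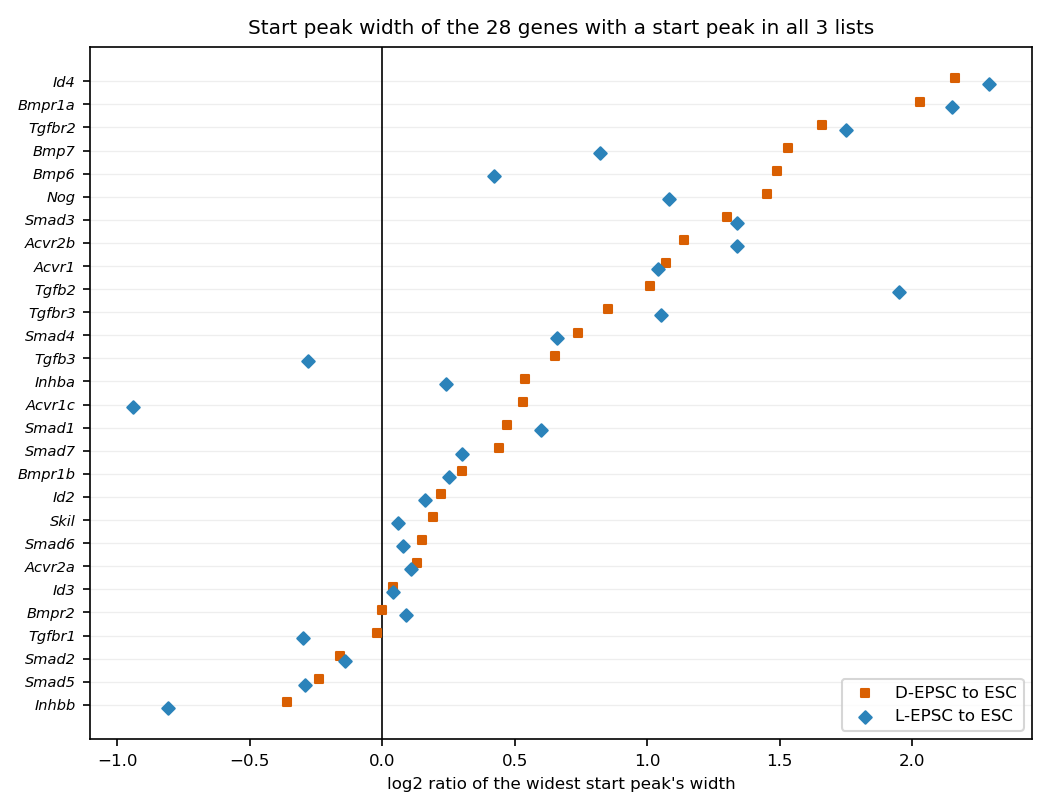
The log2 ratio of the widest start peak's width in D-EPSCs (orange squares) and L-EPSCs (blue diamonds) to that in ESCs, for each of the 28 genes with a start peak in all 3 lists, ordered by the D-EPSC value. Most points lie right of 0 (23 genes for D-EPSCs, 22 for L-EPSCs), up to Id4 at 2.16 and 2.29, where 2 ESC peaks lie in 1 EPSC peak and the ratios of summed widths are 1.65 and 1.77. The leftmost value, for Acvr1c in L-EPSCs (-0.94), and that for Inhbb in D-EPSCs (-0.36) set peaks at different positions against each other.

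Outside each gene's own start windows, the 41 gene bodies held 16 ESC peaks, 40 D-EPSC peaks and 42 L-EPSC peaks, which is 0.390, 0.976 and 1.02 per gene against 0.387, 0.799 and 0.748 over all coding genes. Genes with at least 1 body peak outside the start windows made up 31.7% of the pathway in ESCs (22.6% of all coding genes), 58.5% in D-EPSCs (34.3%) and 56.1% in L-EPSCs (32.9%). With each list held to its 28965 widest peaks, all body peaks, those at starts included, numbered 43 in ESCs, 52 in D-EPSCs, 50 in L-EPSCs, in place of 43, 83 and 83. No count over all coding genes is set beside these. Pathway genes are long, with a median of 38477 bp against 15427 bp for all coding genes, and the part of gene length in these counts and shares was not tested. When peaks of the 3 lists were merged, 113 regions lay in these genes or within 10 kb of them but outside their own start windows, 10 of them in the start window of another coding gene. Of the 103 outside every coding start window, 30 were in all 3 lists (29.1%, against 21.6% of such regions at all coding genes) and 22 in both EPSC lists only (21.4%, against 19.8%). Regions in D-EPSCs only numbered 20 (19.4%, against 26.5%) and in L-EPSCs only 24 (23.3%, against 20.2%). The 3 found in ESCs only (2.91%, against 5.83%) were the intronic peaks of Bmp5 and 1 of 527 bp in an intron of Tgfbr3, the gene for the TGF-beta co-receptor betaglycan.

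Outside their own start windows, the most body peaks in any list were found at Smad6 (1 in ESCs, 3 in D-EPSCs, 5 in L-EPSCs) and Smad1 (1, 4 and 3), followed by Acvr1b, Bmp7, Bmpr1b, Smad3 and Tgfbr3 with at most 3. At Smad6 an intronic region at 3609 bp was in both EPSC lists, with 701 bp in D-EPSCs against 151 bp in L-EPSCs, and 1 at 62814 bp was in all 3 (168 bp, 161 bp and 227 bp). At Smad1 an intronic region at 43356 bp was in all 3 lists, with 168 bp in ESCs, 334 bp in D-EPSCs, 517 bp in L-EPSCs. At Smad3 the shared intronic region at 22180 bp was broadest in ESCs (507 bp, against 146 bp and 163 bp). Bmp7 had a broad shared intronic region at 68787 bp (939 bp, 1086 bp and 859 bp), and Bmpr1b a shared region over a coding exon at 306420 bp (251 bp, 225 bp and 161 bp) and an intronic one at 320105 bp (607 bp, 615 bp and 562 bp). Tgfbr3 had no body peak in all 3 lists outside its start, with 1 intronic region at 141195 bp in both EPSC lists only (200 bp and 169 bp) and its ESC-only region at 78500 bp. Shared and EPSC regions were thus found side by side in most of these genes.

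Of the 10 genes whose start was in both EPSC lists only, 8 had an ESC peak elsewhere in the gene or within 10 kb (80.0%, against 65.4% of the 2047 coding genes of that class). Acvr1b shared an intronic region at 36186 bp (414 bp in ESCs, 225 bp in D-EPSCs, 214 bp in L-EPSCs) and an upstream one at -9816 bp (168 bp, 766 bp and 654 bp), and had 1 at 7200 bp in the EPSC lists only (367 bp and 333 bp). Smad9 shared a region over a coding exon at 41861 bp (315 bp, 268 bp and 405 bp). Tgfb1 shared an upstream region at -6108 bp (475 bp, 508 bp and 518 bp), which lies in the start window of B9d2, and an intronic region at 13116 bp was in both EPSC lists only (212 bp and 213 bp). Fst shared an upstream region at -1626 bp, of 171 bp in ESCs, 473 bp in D-EPSCs, 533 bp in L-EPSCs. Bmp2 had its further peak over a coding exon, at 2574 bp, in the EPSC lists only (377 bp and 185 bp). Chrd had an upstream region at -8533 bp in the EPSC lists only (137 bp and 225 bp). It also had 1 of 405 bp at -2761 bp in D-EPSCs alone, in the start window of Thpo. Neither Bmp2 nor Chrd had an ESC peak in the gene or within 10 kb of it.

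Sequence composition at the starts was taken within 500 bp on either side. The pathway genes had 63.7% GC and a CpG observed/expected ratio of 0.822 as medians, where all coding genes had 54.9% and 0.554. A CpG-rich start (a ratio of at least 0.6 and a GC content of at least 50%) was present at 32 of 41 genes (78.0%, against 44.6%). By class, 26 of the 28 genes open in all lists were CpG-rich (92.9%, against 74.6% of all genes of that class), and 6 of the 10 in both EPSC lists only (60.0%, against 55.0% of all genes of that class). Nodal, Bmp4, Tdgf1 and Id1 were the 4 that were not, Id1 by a narrow margin at 0.599. Bmp5 (0.263), Lefty1 (0.270) and Lefty2 (0.279) had the lowest ratios. Among CpG-rich starts alone, the class of both EPSC lists only held 6 of 32 pathway genes (18.8%) against 11.3% of coding genes.

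**Figure D5:**
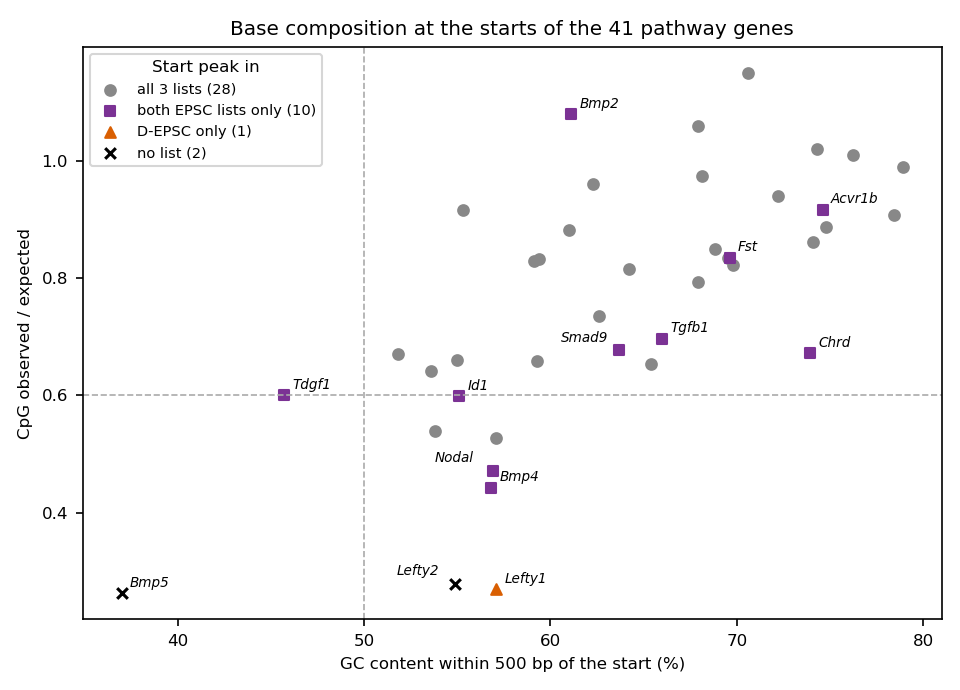
CpG observed/expected ratio against GC content in percent within 500 bp of the start for each of the 41 genes, by the lists with a start peak, with dashed lines at the limits for a CpG-rich start (0.6 and 50%). The 28 genes in all 3 lists (grey) lie mostly in the upper right, and Bmp5, Lefty1 and Lefty2 at the bottom, between 0.263 and 0.279.

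In the 250 bp before the start, 14 of the 41 genes had a CAGAC element (34.1%, against 40.9% of coding genes) and 11 had a GC-rich SMAD site (26.8%, against 11.3%). FOXH1, palindromic, octamer, SOX and TCF/LEF consensus letters were at 0 of 41 genes, but they are rare before all coding starts too (0.729%, 0.148%, 1.61%, 2.34% and 3.00% in that order). The pathway starts had a higher GC content, as given above, and its part in the share of the GC-rich site was not tested. Of the 10 genes in both EPSC lists only, Tdgf1 and Id1 held a CAGAC element. Chrd, Acvr1b and Smad9 held GC-rich sites, which is 3 of the 10, beside 11 of all 41 genes. The 250 bp windows of Chrd, Acvr1b and Smad9 are shown on mm9 from chr16:20732950-20733199, chr15:101004306-101004555 and chr3:54559254-54559503, all on the plus strand, with motif letters in capitals.
Chrd promoter: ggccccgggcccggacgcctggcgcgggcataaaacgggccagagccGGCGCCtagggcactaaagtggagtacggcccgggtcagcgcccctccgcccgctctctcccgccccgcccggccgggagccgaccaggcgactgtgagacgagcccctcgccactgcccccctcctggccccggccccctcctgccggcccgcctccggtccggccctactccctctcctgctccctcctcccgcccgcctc
Acvr1b promoter: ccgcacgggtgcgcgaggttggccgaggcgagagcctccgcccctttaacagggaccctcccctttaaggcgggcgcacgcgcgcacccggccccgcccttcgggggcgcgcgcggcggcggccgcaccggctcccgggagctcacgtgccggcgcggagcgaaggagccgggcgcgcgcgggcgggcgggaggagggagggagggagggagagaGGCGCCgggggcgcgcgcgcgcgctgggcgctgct
Smad9 promoter: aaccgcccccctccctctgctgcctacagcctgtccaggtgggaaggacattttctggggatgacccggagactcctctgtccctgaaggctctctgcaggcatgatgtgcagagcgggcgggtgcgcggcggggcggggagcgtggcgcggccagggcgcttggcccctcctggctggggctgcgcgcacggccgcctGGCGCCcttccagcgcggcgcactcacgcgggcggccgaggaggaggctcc

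The rest of the pathway was taken as 87 further genes. ESC start peaks were found at 54 of them (62.1%, against 51.5% of all coding genes), D-EPSC ones at 72 (82.8%, against 63.4%) and L-EPSC ones at 71 (81.6%, against 60.8%), and 17 (19.5%, against the 9.16% of coding genes above) had one in both EPSC lists only. By role these were 4 of 19 ligand genes (Gdf3, Gdf5, Gdf10 and Inha), 5 of 28 further extracellular or receptor genes (Grem1, Pcsk6, Rgma, Acvrl1 and Amhr2), 2 of 22 intracellular genes (Foxh1 and Zfp423) and 6 of 18 known targets (among them Gsc, Atoh8, Msx2, Junb and Lhx1). Foxh1, the DNA-binding partner of SMAD2 and SMAD3, had start peaks of 526 bp (D-EPSCs) and 144 bp (L-EPSCs). Pcsk6, a convertase that processes the Nodal precursor, had 1241 bp and 715 bp. Junb, a common TGF-beta response gene, had 238 bp and 754 bp. Sostdc1 and Foxa2 had a start peak in D-EPSCs alone. Cfc1, a relative of Tdgf1, was the 1 gene with a start peak in ESCs and L-EPSCs but not D-EPSCs (507 bp and 452 bp). Start peaks in all 3 lists were found at 53 of the 87 genes (60.9%, against 50.4%) and in no list at 14 (16.1%, against 35.1%).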

How the data were processed

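Paired ATAC-seq reads were aligned to mm9 (Bowtie2) by the authors, who filtered alignments by pairing and mapping quality (SAMtools) and ran MACS with its defaults for peak calling. The submitters' processing notes name Trim Galore 0.6.3, FastQC 0.10.1, Bowtie2 2.3.5 and SAMtools 1.10. How the 2 technical replicates of a state were combined, and whether duplicates, the Tn5 offset or blacklisted regions were handled, is not given in the sources used here. These steps and the depth, which is unknown, could change how many weak peaks pass and where their edges lie. The deposited files hold peak positions alone, so presence and width were compared and no replicate test, error or p-value could be given.

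Autosomal, X and Y peaks were set against coding transcript starts of GENCODE M1 on NCBIM37, the same assembly as mm9. Each gene was assigned by the lists with a peak within 1 kb of any coding start. Overlapping peaks of the 3 lists were merged into regions. The 41 genes, the 87 further pathway genes, the marker lists and the comparisons were chosen with earlier results of these data known. By rule, all 41 genes are given by list, peak positions are given for genes not in all 3 lists, those with most body peaks or the largest width ratios, and the Nodal and Id genes (for genes with many peaks, the start region and the regions in 2 or 3 lists first), and further pathway genes are named where the lists differed, except 1 that is not reported here. Motifs were searched as exact consensus letters, which simplify the binding preferences of a factor. Sequences come from the NCBIM37 genome, and sequences on chromosome 18, where Smad2, Smad4 and Smad7 lie, are not shown. The work used Python 3.11.15, pandas 2.3.3, numpy 2.4.6 and matplotlib 3.10.9, and scripts were tested on simulated data: all 200 planted start peaks were found, and the calls for 22359 genes did not differ from those of bedtools 2.31.1.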

Additional observations from a re-analysis of the deposited data

How the results depend on the processing

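No paired analysis was possible because each state has a single peak list with no value per replicate. Leaving out a replicate was impossible likewise. Of 129 values recomputed under other settings, 111 stayed, 18 moved and 0 reversed. A count stayed if within 1.5 times the reported count, and a median width if within the interval that the spread over genes gives. Those medians were over all pathway genes with a start peak in the list (490 bp in ESCs, 887 bp in D-EPSCs, 768 bp in L-EPSCs). The D-EPSC and L-EPSC medians over the 28 shared genes, given above, were not recomputed. With the widest 50% of each list, 18 pathway genes were in all 3 lists (43.9%, against 36.5% of coding genes; 28 as reported), 12 in both EPSC lists only (29.3%, against 13.9%; 10 as reported) and 4 in none (9.76%, against 40.6%), and the genes changed as well, with Nodal then in D-EPSCs only and Bmp4 in no list. Genes in no list numbered 1 with a 2.5 kb window (2.44%, against 31.8%) and 1 with the starts of all transcripts (2.44%, against 34.4%). Coding genes in both EPSC lists only numbered 1357 among the 28965 widest peaks (6.07%) and 3098 with the widest 50% (13.9%), against 2047 (9.16%). Among the 9970 coding genes with a CpG-rich start they numbered 1126 (11.3%). This count is listed among the 18 that moved, but a subset can only lower it, and the share was higher. For coding genes, these 3 settings were picked with results already known. Peaks in gene bodies (43 in ESCs, 83 in D-EPSCs, 83 in L-EPSCs) numbered 16, 40 and 42 without the start windows, 24, 48 and 37 with the widest 50%, and 75, 132 and 134 with 10 kb added on either side. With the 28965 widest peaks, body peaks numbered 52 in D-EPSCs and 50 in L-EPSCs, against 43 in ESCs. Leaving out start windows or narrow peaks can only lower a count, and adding 10 kb can only raise it, so these moves do not measure stability. No count over all coding genes is set beside them. At 500 bp, Nog was in both EPSC lists only, and Inhbb and Bmpr2 lost a start peak in at least 1 list. Peak lists without heights cannot show how strong a difference is, and a gene near the 1 kb limit can change class on a few bases.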
